A study of Mus musculus with 12 samples.

Results

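The genes described here are 10 macrophage genes, Csf1r, Cd68, Mrc1, C1qa, C1qb, C1qc, Cd163, Lyve1, Cx3cr1 and Fcgr1, chosen by name as markers of the cell type, with earlier results of these data known. A transcript in the expression files was matched to 9 of them, among 23715 genes in all, and Cd68 was not analysed here. RNA was sequenced from calvaria, the flat bones of the skull roof, of 12 newborn C57BL/6 mice, in 4 groups of 3. The Med23 set compared mice labelled Med23-/- (P-KO), in which floxed Med23 alleles were removed by Prx1-Cre, with littermates labelled WT (P-Ctrl) that the study describes as controls of the Med23 fl/fl cross. The Runx2 set compared Runx2+/- mice (R-Het) with wild-type littermates (R-WT). Prx1-Cre acts in limb and craniofacial mesenchyme and not in the blood lineage, so macrophages in P-KO mice were expected to keep Med23, whereas in R-Het mice 1 Runx2 allele was missing from every cell. MED23 is a subunit of Mediator, the complex that links transcription factors to RNA polymerase II, and RUNX2 is the transcription factor that commits mesenchymal cells to the osteoblast fate. The study asked how alike both mutants are in gene expression, and the macrophage genes show what happened in cells of another lineage in the same bone.

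Macrophages are phagocytes that most tissues, bone included, receive before birth and then maintain locally. They need the receptor CSF1R, which binds the cytokines CSF1 and IL-34, and the transcription factor PU.1, encoded by Spi1. Osteoclasts, the multinucleate cells that resorb bone, arise from the same myeloid precursors by fusion, under CSF1 and RANK ligand, and they also carry CSF1R. Among the other genes, C1qa, C1qb and C1qc encode the chains of complement C1q, Mrc1 and Cd163 encode scavenger receptors, Lyve1 a hyaluronan receptor shared with lymphatic endothelium, Cx3cr1 the fractalkine receptor and Fcgr1 the high-affinity Fc receptor for IgG. In bulk tissue, fewer cells of a type and less RNA per cell cannot be told apart.

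The 3 C1q genes lie side by side on mouse chromosome 4 within 18719 bases (GRCm38.p6, the build the submitters call mm10), C1qb at chr4:136880126-136886200, C1qc at chr4:136889801-136892936 and C1qa at chr4:136895916-136898844. They are the members that moved most closely together from mouse to mouse, and the RefSeq promoter sequences of C1qb and C1qc are shown for that reason. Each is the 250 bases before the transcript start that the promoter table uses, which for C1qc lies a little inside the outer end of the gene given above, 5′ to 3′ on the minus strand, at chr4:136886201-136886450 for C1qb and chr4:136892915-136893164 for C1qc. Capitals mark the letters AGGAAG, a core that PU.1 and other ETS factors bind, or its reverse complement CTTCCT, and the letters TGCTGA of the MAF half-site, or TCAGCA; the motifs share no overlap in these windows.
C1qb: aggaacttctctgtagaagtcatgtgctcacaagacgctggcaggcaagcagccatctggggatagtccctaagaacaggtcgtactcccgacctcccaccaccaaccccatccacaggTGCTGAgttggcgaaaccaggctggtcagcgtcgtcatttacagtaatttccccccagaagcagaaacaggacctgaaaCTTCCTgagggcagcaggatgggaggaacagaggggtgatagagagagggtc
C1qc: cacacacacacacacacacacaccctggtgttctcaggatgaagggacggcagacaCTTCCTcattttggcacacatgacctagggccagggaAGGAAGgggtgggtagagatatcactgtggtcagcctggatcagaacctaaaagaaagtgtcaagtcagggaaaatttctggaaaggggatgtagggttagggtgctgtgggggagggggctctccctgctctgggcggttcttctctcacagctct
AGGAAG was present in the windows of C1qb, C1qc, Mrc1 and Fcgr1, 4 of the 7 genes with a window (Cd68, Cd163 and Cx3cr1 were the others), and in 29.5% of all 32851 mouse windows of this length. TGCTGA was present in the C1qb window, 1 of the 7, and in 16.1% of all windows. These matches describe the letters only.

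The values are FPKM, fragments counted per length of transcript and per size of library, so levels can be compared between genes. The smallest steps in the files correspond to about 7800000 to 11800000 fragments per mouse, and the member with the least signal, Fcgr1, rested on an estimated 47 to 120 fragments in each mouse. Across genes, mice of 1 group correlated with Pearson's r of 0.978 to 0.988. Neither targeted gene separated the groups of its own set at the level of the whole gene. Med23 was at 4.89 to 5.74 FPKM in the libraries labelled P-KO and 4.54 to 5.99 in P-Ctrl (log2 fold change 0.00, adjusted p = 0.997), and Runx2 was at 30.4 to 35.7 in those labelled R-Het and 27.3 to 37.7 in R-WT (log2 fold change 0.09, adjusted p = 0.796). In the Med23 set Runx2 was at 23.7 to 28.7 FPKM in P-KO and 30.5 to 38.0 in P-Ctrl, without overlap (log2 fold change -0.40, adjusted p = 0.127). A value summed over a whole transcript does not test a deleted exon or a disrupted allele, so every direction below rests on the labels. Xist, which marks female cells, was at 37.8 to 49.1 FPKM in P-Ctrl mice 2 and 3 and in R-WT mouse 1 and at most 0.0663 in the other 9, so all 6 libraries labelled mutant were from males. Skeletal muscle genes differed most among the lists of other tissues: 10 such genes summed to 26.7 to 188 FPKM in R-Het against 1910 to 5622 in R-WT, and to 598 to 4164 in P-KO against 23.7 to 1378 in P-Ctrl. The part of sex and of attached muscle in the differences below was not tested beyond the fits named.

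No macrophage gene passed the test in either set. Of the 9 measured genes, all of which passed the filter on low values (at least 1 FPKM in at least 3 mice), 0 were called lower and 0 higher by limma at an adjusted p under 0.05 in the Med23 set, where 0.559% of 13059 genes were called lower and 1.01% higher. In the Runx2 set 0 were called lower and 0 higher, against 1.49% and 0.398% of all genes. At an unadjusted p under 0.05 there were 0 in the Med23 set and 2 in the Runx2 set, Csf1r lower and Cd163 higher. Of all 13059 genes, 735 were lower and 2046 higher at this level in the Med23 set. In the Runx2 set 1087 were lower and 926 higher. Over the 9 genes the median change, on the log2 scale, was -0.15 in the Med23 set, where the median of all genes was 0.06, and -0.07 in the Runx2 set, where it was 0.02. Both medians stood close to 0 against the intervals of the genes themselves, most of which were wider than 0.5 on the log2 scale and so leave moderate changes in either direction undetectable at this number of mice.

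**Figure D1:**
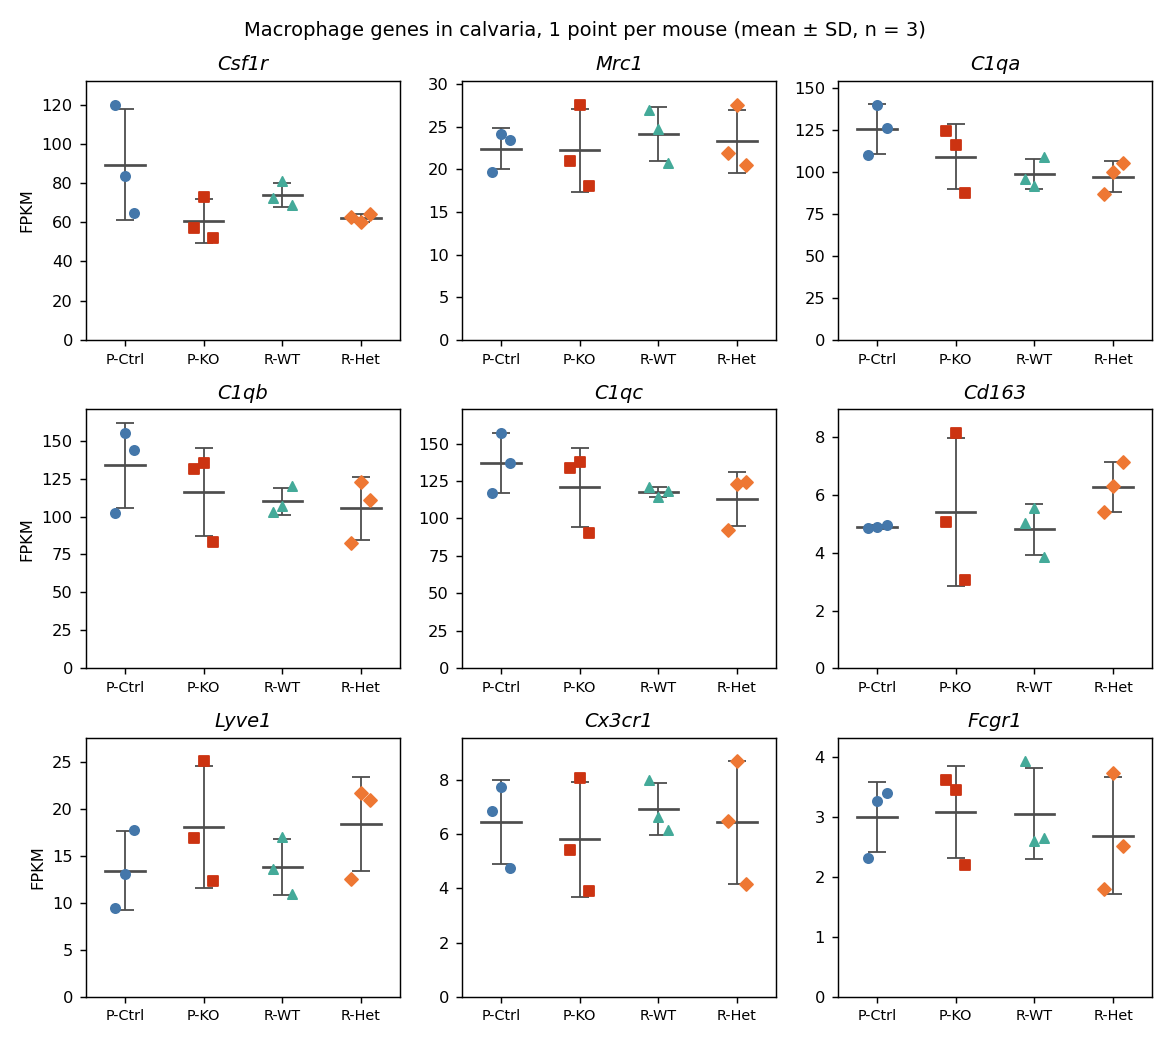
FPKM of the 9 macrophage genes in each mouse, in groups P-Ctrl, P-KO, R-WT and R-Het; points are mice, and lines and bars are the mean and SD of 3. Mutant and control mice of a set overlap in every panel except those of the Runx2 set in Csf1r, where the R-Het mice (59.9 to 64.3 FPKM) lie below the R-WT mice (69.0 to 80.9).

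Csf1r, the receptor that macrophages and osteoclasts depend on, had the largest downward difference of the members in the Med23 set, without passing the test. It was at 120, 83.6 and 64.5 FPKM in P-Ctrl mice 1, 2 and 3 and at 56.8, 73.0 and 52.0 in P-KO mice 1, 2 and 3. The P-KO mice were the lower on average, 60.6 ± 11.0 against 89.4 ± 28.3 FPKM (SD, n = 3 each), but P-KO 2 lay above P-Ctrl 3 and the groups overlapped. The log2 fold change was -0.52 (SE 0.23, 95% interval -1.05 to 0.01, adjusted p = 0.244). P-Ctrl 1 alone held the top of the range, and without it the change was -0.29 (adjusted p = 0.418); with sex as a covariate, where P-Ctrl 1 is the only male control, it was -0.99 (adjusted p = 0.0958).

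Among the Runx2 mice Csf1r was at 72.3, 80.9 and 69.0 FPKM in R-WT mice 1, 2 and 3. In R-Het mice 1, 2 and 3 it was at 62.5, 59.9 and 64.3. All 3 R-Het mice were below all 3 R-WT mice, a separation that 10.4% of all genes showed in this direction in this set. The means were 62.2 ± 2.22 and 74.0 ± 6.15 FPKM. The log2 fold change was -0.25 (SE 0.09, 95% interval -0.45 to -0.04, unadjusted p = 0.0241, adjusted p = 0.232). It did not pass the threshold under any alternative, at adjusted p between 0.21 and 0.584. The difference of the change between the sets was -0.28 (95% interval -0.86 to 0.30, adjusted p = 0.68).

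The C1q chains, secreted mainly by macrophages and the first component of the classical complement pathway, were, with Csf1r, the most abundant members. C1qa was at 110, 140 and 126 FPKM in P-Ctrl mice 1 to 3 and at 124, 116 and 87.3 in P-KO. It was at 96.0, 91.7 and 109 in R-WT and at 86.9, 99.7 and 105 in R-Het. C1qb was at 102, 155 and 144 FPKM in P-Ctrl and at 131, 135 and 83.1 in P-KO. It was at 103, 107 and 120 in R-WT and at 82.4, 123 and 111 in R-Het. C1qc was at 117, 157 and 137 FPKM in P-Ctrl, at 134, 138 and 90.0 in P-KO, at 121, 114 and 118 in R-WT and at 92.2, 123 and 124 in R-Het. The same mice were low for all 3 chains, P-KO 3 in its group and R-Het 1 in its group, and in P-Ctrl it was mouse 1, while mutant and control mice overlapped within each set for every chain.

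The log2 fold changes of the chains in the Med23 set were -0.21 (95% interval -0.56 to 0.14) for C1qa, -0.21 (-0.73 to 0.32) for C1qb and -0.20 (-0.63 to 0.23) for C1qc, with adjusted p of 0.462, 0.631 and 0.572. They rested on P-KO 3: without it they were -0.06, 0.02 and -0.00. In the Runx2 set they were -0.03, -0.07 and -0.07, and the intervals reached from -0.42 to 0.28 at the widest. The mean log2(FPKM + 1) of the chains was 7.04 ± 0.23 in P-Ctrl, 6.84 ± 0.33 in P-KO, 6.77 ± 0.08 in R-WT and 6.72 ± 0.22 in R-Het (SD, n = 3).

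The ratio of the chains varied less than their levels. C1qa stood at 0.794 to 0.970 of C1qc over the 12 mice and C1qb at 0.848 to 1.05 of C1qc, while the sum of the chains ran from 260 FPKM in P-KO 3 to 452 in P-Ctrl 2. A proportionality coefficient, which is 1 when the log ratio of a pair of genes is the same in every mouse and near 0 when they vary independently, was 0.93 for C1qb and C1qc, 0.90 for C1qa and C1qc and 0.87 for C1qa and C1qb. These were the highest of the 36 pairs of members. Outside the cluster, Fcgr1 was the member nearest to the chains, at 0.73 with C1qc, and Cd163 and Lyve1 were at 0.75 with each other.

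The scavenger and hyaluronan receptors were at lower levels. Mrc1, the macrophage mannose receptor, was at 19.7, 24.1 and 23.5 FPKM in P-Ctrl and at 21.0, 27.6 and 18.1 in P-KO. It was at 27.0, 24.7 and 20.8 in R-WT and at 21.9, 27.5 and 20.5 in R-Het. Its groups overlapped almost fully, and its log2 fold change was -0.03 (95% interval -0.40 to 0.34) in the Med23 set and -0.05 (-0.37 to 0.26) in the Runx2 set.

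Cd163, which takes up haemoglobin bound to haptoglobin, was at 4.85, 4.88 and 4.97 FPKM in P-Ctrl and at 5.07, 8.15 and 3.05 in P-KO. The P-Ctrl mice were nearly equal, while the P-KO mice lay on either side of them, P-KO 2 high and P-KO 3 low, and the log2 fold change was 0.04 (95% interval -0.58 to 0.66). Among the Runx2 mice it was at 5.03, 5.56 and 3.84 FPKM in R-WT and at 5.42, 6.31 and 7.13 in R-Het, so 2 R-Het mice were above every R-WT mouse. Its log2 fold change there was 0.33 (95% interval 0.00 to 0.66, unadjusted p = 0.049, adjusted p = 0.322). Cd163 is the sum of 2 transcripts, and the share assigned to the first of them ran from 17.4% to 62.5% between mice. With the more abundant transcript alone the change was -0.34 in the Med23 set and 0.16 in the Runx2 set, against 0.04 and 0.33 for the sum. Whether the share reflects isoform use or the division of reads between transcripts was not tested.

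Lyve1, which perivascular macrophages and lymphatic vessels carry, was the member with the largest upward difference in both sets. It was at 9.44, 13.1 and 17.8 FPKM in P-Ctrl and at 16.9, 25.1 and 12.3 in P-KO (log2 fold change 0.39, 95% interval -0.28 to 1.06, adjusted p = 0.467). In the Runx2 set it was at 13.6, 17.0 and 11.0 FPKM in R-WT and at 12.6, 21.7 and 21.0 in R-Het. The log2 fold change there was 0.37 (95% interval -0.14 to 0.88, adjusted p = 0.484). The mutant mice spread over most of the control range in both sets, with 1 of 3 P-KO mice and 2 of 3 R-Het mice above every control. The defining lymphatic gene Prox1 was at 0.0201 to 0.180 FPKM and Ccl21a at most at 1.25, both far under the Lyve1 level in every mouse. Of the 5 lymphatic genes listed, only Pdpn, which osteoblast-lineage cells also express, passed the filter, and at 46.2 to 66.9 FPKM it stood above Lyve1 in every mouse. The part of lymphatic cells in the Lyve1 level was not tested.

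Cx3cr1 was at 6.87, 7.75 and 4.75 FPKM in P-Ctrl, at 5.44, 8.08 and 3.91 in P-KO, at 8.01, 6.64 and 6.16 in R-WT and at 6.48, 8.69 and 4.16 in R-Het. Fcgr1 was at 2.32, 3.27 and 3.39 FPKM in P-Ctrl, at 3.61, 3.44 and 2.20 in P-KO, at 3.92, 2.60 and 2.64 in R-WT and at 1.80, 3.73 and 2.52 in R-Het. Neither gene separated any pair of groups. The log2 fold changes of Cx3cr1 were -0.15 (95% interval -0.73 to 0.42) and -0.13 (-0.63 to 0.37) in the Med23 and Runx2 sets, and those of Fcgr1 were 0.02 (-0.40 to 0.45) and -0.16 (-0.65 to 0.33).

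**Figure D2:**
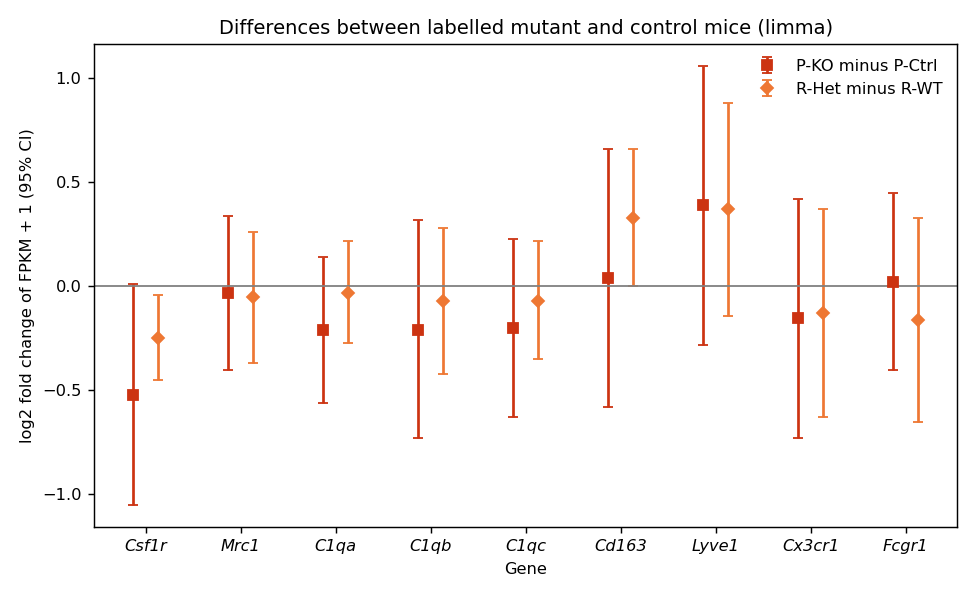
Log2 fold change of FPKM + 1 for each macrophage gene (x axis) between labelled mutant and control mice, with 95% intervals, in the Med23 set (squares) and the Runx2 set (diamonds). Every interval of the Med23 set spans 0, and in the Runx2 set those of Csf1r (-0.45 to -0.04) and, at its edge, Cd163 (0.00 to 0.66) do not.

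When the groups were put in order of their mean FPKM, neighbours in the order overlapped in range for every member at every step but 1, the step from R-WT to R-Het in Csf1r. Groups further apart in the order could still separate. P-Ctrl did not overlap R-WT for C1qa (110 to 140 against 91.7 to 109 FPKM), nor R-Het for C1qa, Csf1r and Cd163. These groups come from different crosses. The share of all genes separated between them was not counted, so nothing particular to the members is read from this. Csf1r ran from 89.4 FPKM in P-Ctrl to 60.6 in P-KO, C1qb from 134 in P-Ctrl to 106 in R-Het, and Mrc1 from 24.2 in R-WT to 22.2 in P-KO. No member's change differed between the sets by the test of that difference, which called 0.153% of all genes, and the 9 adjusted p lay between 0.68 and 0.991. In the Med23 set 0 members had groups that did not overlap, where 7.68% of all genes were separated downward and 19.6% upward; in the Runx2 set Csf1r alone was separated, and upward separation, which 10.7% of all genes showed, was seen in 0.

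Over the 12 mice Csf1r varied more closely with osteoclast genes than with the C1q chains, with P-Ctrl 1 at the top for both Csf1r and the osteoclast genes. The comparison was chosen after the values were seen. It is a description over 12 mice that share library preparation and group structure. The proportionality coefficient of Csf1r was 0.81 to the mean log2 value of 15 osteoclast genes and 0.21 to that of the C1q chains. With each group centred on its own mean the coefficients were 0.85 and -0.11. For the other 8 members the coefficient to the osteoclast genes lay between -0.46 and 0.23, and with groups centred between -0.29 and 0.39 (Cd163). Csf1r stood at 1.09 of the mean of the C1q chains in P-Ctrl 1, where the osteoclast genes summed to 8464 FPKM, and at 0.437 to 0.778 of it in the other 11 mice, where that sum was 3489 to 6660.

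**Figure D3:**
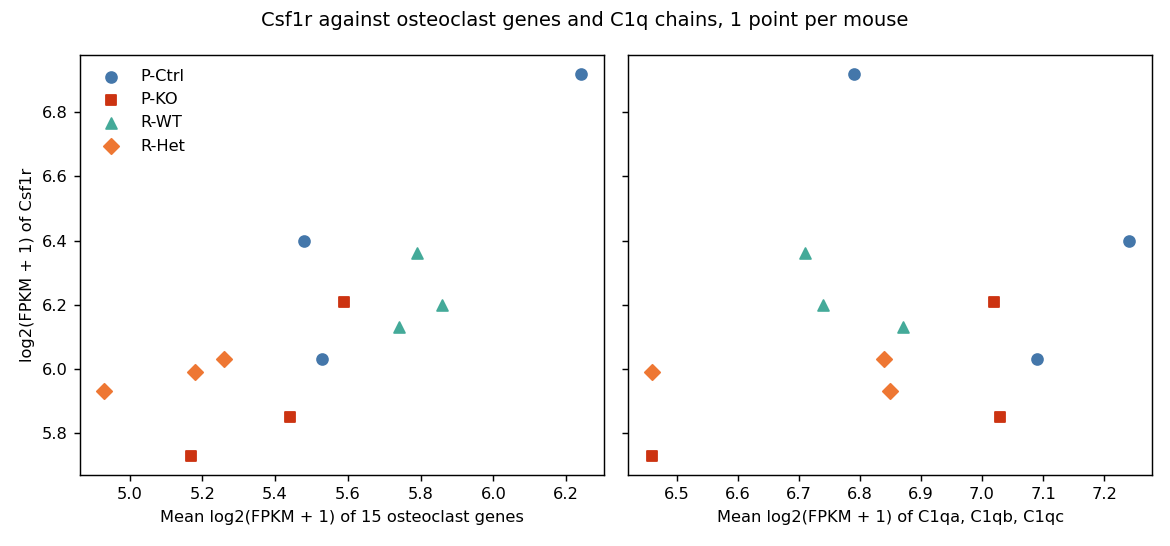
Log2(FPKM + 1) of Csf1r (y axis) against the mean log2(FPKM + 1) of 15 osteoclast genes (left) and of the 3 C1q chains (right), 1 point per mouse, with group by colour and shape. Csf1r tends to be higher where the osteoclast mean is higher, from R-Het 2 at 4.93 to P-Ctrl 1 at 6.24, and is scattered against the C1q mean. P-Ctrl 1 is the highest mouse for both Csf1r and the osteoclast mean.

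The genes nearest to Csf1r by the same coefficient, among 8767 genes with a mean of at least 5 FPKM, were Plekhn1 (0.95), Nfatc1 (0.94), Clcn7 (0.93), Tpp1 (0.93), Ctsa (0.92), Arsb (0.91), Slc11a2 (0.91) and Gusb (0.91). Nfatc1 encodes the master transcription factor of osteoclasts and Clcn7 the chloride transporter they use to acidify the resorption pit, and Tpp1, Ctsa, Arsb and Gusb encode lysosomal enzymes. Those nearest to the mean of the C1q chains were Pld4 (0.86), Lrch4 (0.82), Cd14 (0.82), Tmem37 (0.79), Dok2 (0.78), Trem2 (0.76), H2-D1 (0.76) and Adgre1 (0.73), of which Adgre1 encodes F4/80, the classical macrophage surface antigen, and Cd14 the co-receptor for lipopolysaccharide. Those nearest to the mean of all 9 members were Niban1 (0.85), Rab32 (0.82), Rabl3 (0.79), Cfb (0.78), Dok2 (0.76), Trem2 (0.76), Fcgr3 (0.75) and F13a1 (0.75). None of these last 8 passed the test in either set, and their log2 fold changes lay between -0.32 (Trem2) and 0.20 (Fcgr3), both in the Runx2 set.

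The ligands of CSF1R and the RANK ligand genes are produced by osteoblasts, osteocytes and other mesenchymal cells. All 4 had P-KO values below every P-Ctrl value, a separation that 7.68% of all genes showed in this direction. Of the 4, 1 was called lower in the Med23 set and 0 in the Runx2 set, with median log2 fold changes of -0.67 and -0.18. Il34 was at 6.28, 7.63 and 6.57 FPKM in P-Ctrl and at 3.84, 4.48 and 3.79 in P-KO, with no overlap, and its log2 fold change was -0.63 (SE 0.11, adjusted p = 0.0446). The call rested on all 6 mice, since the adjusted p was 0.0716 to 0.17 with any 1 of them left out, while the change stayed between -0.70 and -0.56. Il34 passed in 5 of 10 other alternatives, and not with sex as a covariate, where the change was -0.53. Csf1, the other ligand, was at 31.6, 26.6 and 22.1 FPKM in P-Ctrl and at 15.7, 17.1 and 14.8 in P-KO, again with no overlap (-0.71, SE 0.13, adjusted p = 0.0542).

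Among the Runx2 mice Il34 was at 7.09, 7.37 and 5.44 FPKM in R-WT and at 4.84, 6.73 and 8.15 in R-Het, and Csf1 was at 20.0, 21.8 and 21.3 against 21.5, 17.7 and 17.9. The groups overlapped for both ligands, with log2 fold changes of -0.03 and -0.14. The test of the difference between the sets gave adjusted p of 0.221 for Il34 and 0.149 for Csf1, so it is not shown that either ligand responded differently in the mutants of both sets. Tnfrsf11b, the decoy receptor osteoprotegerin, had a log2 fold change of -0.87 in the Med23 set (adjusted p = 0.099) and -0.22 in the Runx2 set, and Tnfsf11, RANK ligand, -0.56 (adjusted p = 0.159) and -0.76 (adjusted p = 0.16).

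Of 7 transcription factors of the macrophage lineage, 0 were called in the Med23 set and 1 was called lower in the Runx2 set, with medians of -0.23 and -0.14. Spi1, which encodes PU.1, was at 54.7, 52.4 and 53.5 FPKM in R-WT and at 34.1, 31.9 and 36.0 in R-Het. It was called lower there (log2 fold change -0.64, SE 0.08, adjusted p = 0.0165), and in 4 of 6 fits with 1 mouse left out, the exceptions being those without R-WT 1 (adjusted p = 0.0655) and without R-Het 1 (0.0538). In the Med23 set it was at 75.1, 60.7 and 48.8 FPKM in P-Ctrl and 42.6, 43.2 and 39.9 in P-KO (-0.52, adjusted p = 0.117). The test of the difference between the sets did not call Spi1 (adjusted p = 0.799). After Spi1, the largest log2 fold change in size was that of Cebpb in the Med23 set (-0.52, adjusted p = 0.313, and -0.14 in the Runx2 set) and that of Irf8 in the Runx2 set (-0.46, adjusted p = 0.254). Maf was at 27.5 to 35.0 FPKM in the Med23 set and 31.2 to 36.2 in the Runx2 set, with log2 fold changes of -0.06 and 0.09.

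**Figure D4:**
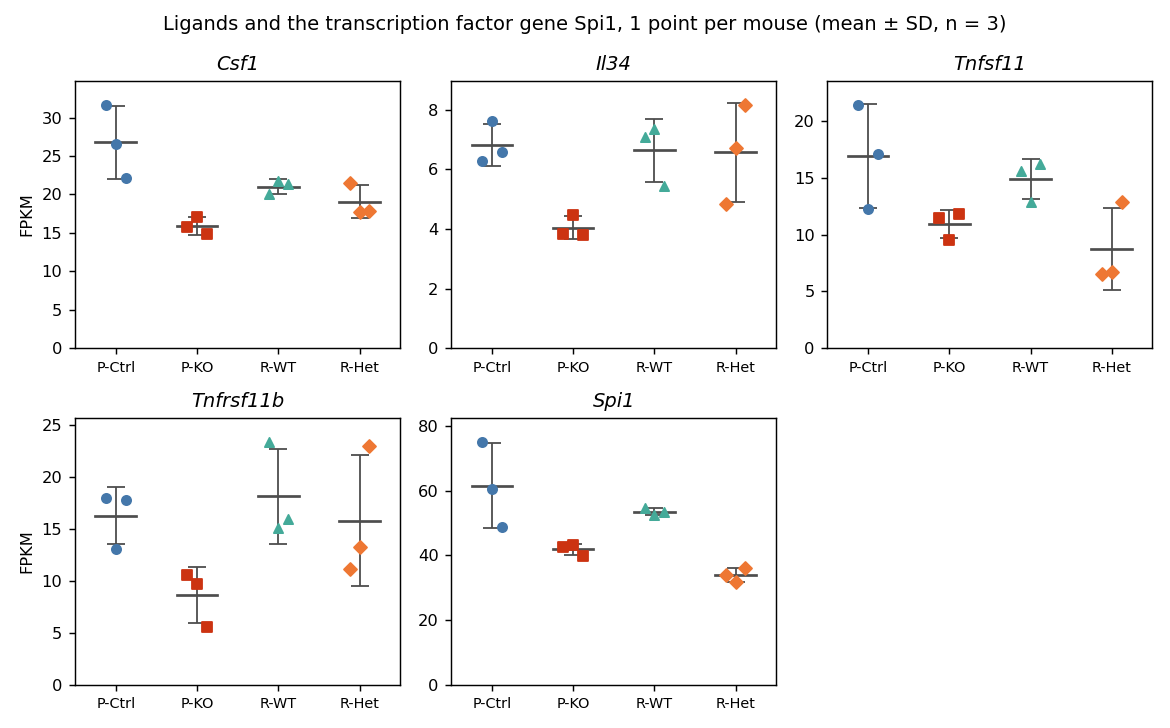
FPKM of the CSF1R ligands Csf1 and Il34, the RANK ligand genes Tnfsf11 and Tnfrsf11b and the transcription factor gene Spi1 in each mouse, with the mean and SD of 3. All 5 genes are lower in every P-KO mouse than in every P-Ctrl mouse (7.68% of all genes are), and Spi1 and, by a narrow margin, Tnfsf11 also separate R-Het from R-WT (10.4% of all genes do in this direction).

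Other lists of the macrophage lineage gave few calls. Of 16 further tissue macrophage genes 14 were tested, and 0 were called in either set, with medians of -0.05 and -0.04. The genes with the largest changes there were Cd209f (0.56 in the Med23 set and -0.48 in the Runx2 set) and Cbr2 (-0.56 and -0.26), none of them called. These 16 genes summed to 443 FPKM in P-KO 3 and in P-Ctrl 1, the lowest of their groups, and to 542 to 688 in the other 10 mice. Pf4 was the largest part of the sum, at 264 FPKM in P-KO 3 and 204 in P-Ctrl 1. Folr2 was at 8.49 FPKM in P-KO 3 and at 33.6 and 38.6 in P-KO 1 and 2, and the myeloid gene Lyz2 at 75.5 against 350 and 326. Of 12 monocyte genes 10 were tested, 0 were called, and the medians were -0.32 and -0.21. The largest changes over both sets were those of Ly6c2 (-0.95 and -0.89) and Chil3 (-0.31 and -0.66). Both genes were near the floor, Ly6c2 at 0 to 4.74 FPKM and Chil3 at 0 to 3.20. Nr4a1 was at -0.58 and 0.40. Of 5 Fc receptor genes 0 were called, with medians of -0.27 and -0.15, and Fcgr2b (-0.42 and 0.13) and Fcer1g (-0.20 and -0.38) had the largest values. Of 13 further genes listed under complement 11 were tested and 0 called, with medians of -0.14 and -0.03. The largest changes were those of C1s1 (-0.38 in the Med23 set) and Cd93 (-0.34). The list also held C1qbp (0.27 and 0.06) and Calr (0.06 and 0.04), which are not complement components.

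Genes shared by many leukocytes and those of osteoclasts had negative log2 fold changes for nearly all genes listed in both sets. The counts were 10 of 10 and 15 of 15 in the Runx2 set and 10 of 10 and 13 of 15 in the Med23 set. The median of all genes was 0.02 in the Runx2 set and 0.06 in the Med23 set. Genes of 1 list can vary together from mouse to mouse, so these counts are not of independent genes. Of 10 pan-leukocyte and myeloid genes, 1 was called lower in the Runx2 set, Lyn, a SRC-family kinase (-0.54, adjusted p = 0.0283), and Tyrobp, an adaptor that macrophages and osteoclasts share, had the largest change (-0.60, adjusted p = 0.0559); the median was -0.37 there and -0.18 in the Med23 set, where 0 were called. Lyn was called in 1 of 6 fits with 1 mouse left out. Of 15 osteoclast genes, 5 were called lower in the Runx2 set, Car2 (-1.24, adjusted p = 0.0054), Calcr (-1.03), Dcstamp (-0.98), Atp6v0d2 (-0.85) and Tcirg1 (-0.58), which serve acid secretion, calcitonin sensing and cell fusion. All 15 had negative log2 fold changes there, with a median of -0.63, and 14 had groups that did not overlap. Of all genes, 10.4% were separated downward in this set and 1.49% were called lower. With 1 mouse left out 1 to 6 were called, the lowest count being without R-WT 1. Car2 was called in 6 of 6 such fits, Atp6v0d2 in 5, Dcstamp in 4, Calcr in 1 and Tcirg1 in 0. In the Med23 set 0 osteoclast genes were called and the median was -0.39, and -0.57 to -0.13 with 1 mouse left out. The osteoclast genes summed to 8464 FPKM in P-Ctrl 1 against 4755 and 5328 in P-Ctrl 2 and 3, and to 4321 to 5471 in P-KO. Car2 was at 42.6, 32.8 and 37.6 FPKM in R-WT and 15.5, 15.3 and 15.2 in R-Het, but at 39.3, 24.2 and 30.2 in P-Ctrl and 37.8, 31.0 and 31.3 in P-KO.

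**Figure D5:**
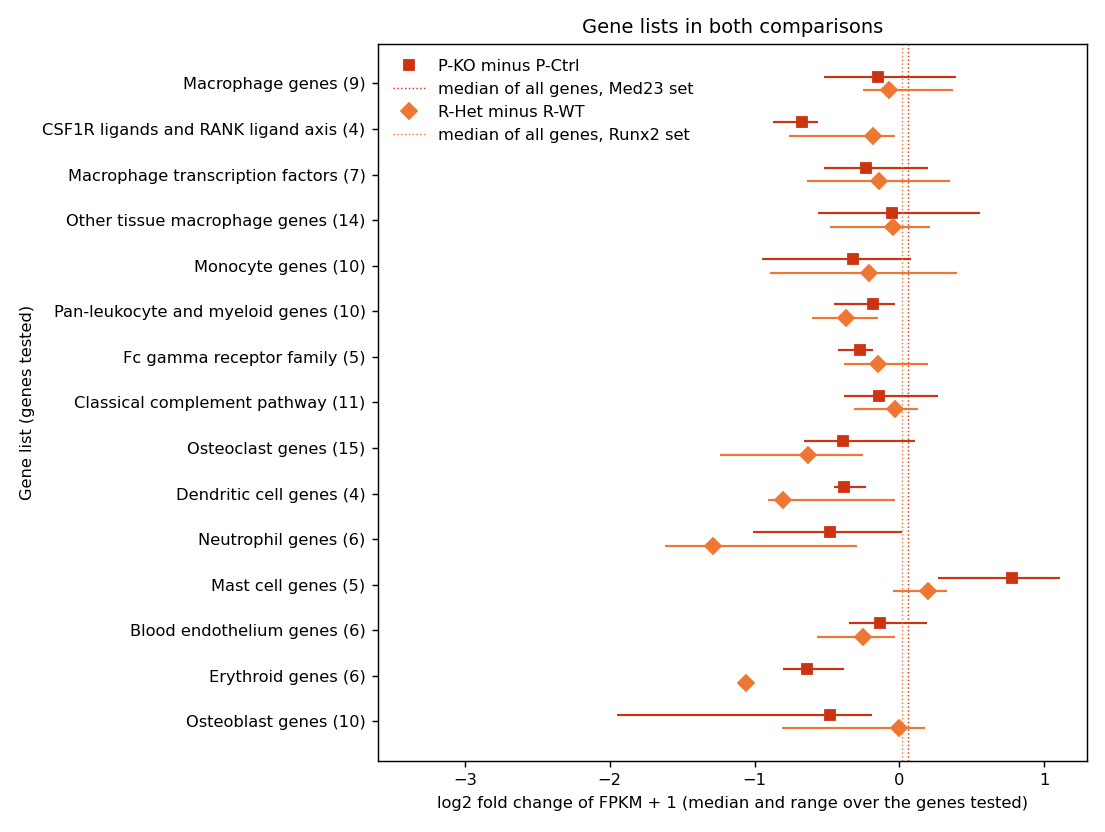
Median (marker) and range (line) of the log2 fold change of FPKM + 1 over the tested genes of each list, in the Med23 set (squares) and the Runx2 set (diamonds); dotted lines are the medians of all genes, and skeletal muscle and lists with under 4 tested genes are not drawn. The macrophage genes and other tissue macrophage genes lie near the dotted lines, while the osteoclast median in the Runx2 set is -0.63 and the ligand median in the Med23 set is -0.67. Further off lie neutrophil (-1.29), erythroid (-1.06) and dendritic cell genes (-0.80) in the Runx2 set and mast cell genes (0.78) in the Med23 set.

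Markers of other cells that carry some of the members were checked beside them. The microglial genes Sall1 and Siglech were at most at 1.70 and 0.330 FPKM, while P2ry12 was at 1.77 to 6.46 and Gpr34 at 3.88 to 11.8. Tmem119, which bone cells also express, was higher in every R-Het mouse than in every R-WT mouse (0.30, not called). Of all genes, 10.7% were separated upward in this set. Gpr34 had log2 fold changes of 0.07 and -0.18. In either set 0 of 3 tested microglia genes were called, with medians of -0.00 and -0.06. Of 9 dendritic cell genes 4 were tested and 0 called, with medians of -0.38 and -0.80, with H2-Aa (-0.91) and Cd74 (-0.90) the largest in size in the Runx2 set. Of 9 neutrophil genes 6 were tested and 0 called (medians -0.48 and -1.29, S100a9 -1.62 and Camp -1.57 in the Runx2 set). Their sum ranged from 68.4 FPKM in P-KO 3 to 622 in P-Ctrl 2. Mast cell genes had medians of 0.78 and 0.20, with Cpa3 at 1.11 (adjusted p = 0.0763) and Tpsb2 at 0.78 in the Med23 set, and 0 of 5 called. Of 7 lymphocyte genes 1, Cd79b, was tested and not called (-0.27 and -0.39).

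Erythroid genes had medians of -0.64 and -1.06 with 0 of 6 called, with Hba-a1 and Hbb-bt (both -1.08) the largest in size in the Runx2 set; globin genes share reads with near-identical copies. Of 6 tested endothelial genes 1 was called lower in the Runx2 set, Pecam1 (-0.57, adjusted p = 0.0184, and called in 3 of 6 fits with 1 mouse left out), followed by Emcn (-0.51), and the medians were -0.13 and -0.25; Pdpn, of the lymphatic list, was at 0.15 and 0.01. Of 10 osteoblast genes 1 was called lower in the Med23 set, Bglap (-1.95, adjusted p = 0.0401, and called in 0 of 6 fits with 1 mouse left out), which shares reads with near-identical copies, then Dmp1 (-1.02), with medians of -0.48 and -0.00. Of 10 muscle genes 9 were called lower in the Runx2 set (Acta1, Ckm, Myh3, Myh8, Myl1, Mylpf, Pvalb, Tnnc2 and Tnnt3), with a median of -4.44, 3 to 8 called with 1 mouse left out, and Tnnc2 (-5.18) and Myl1 (-5.08) the largest, against 0 called and a median of 2.87 in the Med23 set.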

How the data were processed

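Total RNA from the calvaria of 12 mice was sequenced from Illumina TruSeq libraries. The submitters' processing notes name Bowtie 0.12.8 and mm10; the program that computed expression is not given in the sources used here. The authors deposited 1 file per mouse with an FPKM value for each RefSeq transcript, normalized for transcript length and library size. Of 30411 transcripts, 29835 were named from a RefSeq table (GRCm38.p6), 180 from GENCODE M21, and 396 kept their accession. FPKM values were summed per gene symbol. No accession in the files was paired with Cd68 by these tables.

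The 10 genes and the other lists were chosen with earlier results of these data known. Of the other lists, 3 genes are not reported here. log2(FPKM + 1) values of genes at 1 FPKM or more in at least 3 of 12 mice (13059 genes) were compared with limma 3.58.1 (R 4.3.3, mean-variance trend) in each set of 6 mice, and P-values were adjusted over all genes by the Benjamini-Hochberg method; the difference between the sets was a contrast over all 12 mice. A fold change on this scale understates the change of low genes. Genes named beside the members are those called in either set, the 2 with the largest change per list, and the 8 with the highest proportionality coefficient (1 minus the variance of the log ratio over the sum of both variances) to the mean of the members; the neighbours of Csf1r and of C1q, and others used to describe a library or cell type, were added after the values were seen. The planned permutation test on the mean of the C1q chains was not used, since the chains are members chosen with results known. Fragments per mouse were estimated from the smallest steps of FPKM times transcript length and are approximate; they cover counting error only. The labels do not say whether mice came from separate litters, so P-values measure the spread between these mice. The method was tested on simulated data. Alternatives were another pseudocount (0.1), filter (none, or 5 FPKM), scaling (equal sums, median ratio), transcript choice, no trend, a joint fit, a replicate block, sex as a covariate, and leaving out each mouse.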

Additional observations from a re-analysis of the deposited data

Results flagged for a closer look

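Groups of 3 mice were too small to test whether a mouse stood apart. Among the genes named, the change differed between the sets, by the test of that difference over 12 mice, for 2 genes that are not macrophage markers. For Car2, carbonic anhydrase of osteoclasts and red cells, the difference of the log2 fold changes was 1.35 (adjusted p = 0.0422), with adjusted p of 0.0122 to 0.115 when 1 mouse was left out and the threshold passed in 3 of 12 such fits. For Pvalb, parvalbumin of fast muscle, it was 4.36 (adjusted p = 0.0353), with 5 of 12 such fits passing.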

How the results depend on the processing

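No macrophage gene was called in either set, or between the sets, under any of the 474 alternative values computed for the 27 member results; 422 kept their direction and 52 changed sign, all of them for changes that were not called. The lowest adjusted p of a member was 0.0958, for Csf1r in the Med23 set with sex as a covariate. Outside single mice, the sign changed with sex as a covariate for Mrc1 (0.14), C1qb (0.15) and C1qc (0.02) in the Med23 set, for Mrc1 in the Runx2 set (0.03) and for the difference of Cx3cr1 (0.00). It changed with equal sums and with median-ratio scaling for Cd163 (-0.04 and -0.02) and Fcgr1 (-0.05 and -0.03) in the Med23 set and for the differences of Mrc1 (-0.11 and -0.03) and Lyve1 (-0.11 and -0.04), with equal sums for C1qa in the Runx2 set (0.01), and with the highest transcript for Cd163 in the Med23 set (-0.34). Equal sums moved the median difference over all genes from 0.04 to -0.09. With 1 mouse left out the Med23 changes ran from -0.19 to 0.10 for Mrc1, -0.39 to 0.02 for C1qb, -0.25 to 0.34 for Cd163, -0.39 to 0.06 for Cx3cr1 and -0.10 to 0.19 for Fcgr1. The Runx2 changes ran from -0.17 to 0.03 for Mrc1, -0.08 to 0.05 for C1qa, -0.19 to 0.10 for C1qb, -0.14 to 0.07 for C1qc, -0.35 to 0.11 for Cx3cr1 and -0.35 to 0.03 for Fcgr1. The differences ran from -0.14 to 0.15 for Mrc1, -0.32 to 0.08 for C1qb, -0.27 to 0.07 for C1qc, -0.58 to 0.00 for Cd163, -0.24 to 0.25 for Lyve1, -0.26 to 0.19 for Cx3cr1 and -0.00 to 0.38 for Fcgr1. The median of the members ran from -0.26 to 0.06 in the Med23 set and -0.17 to 0.05 in the Runx2 set.

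Counts over all genes were less stable; their causes were not tested. The Med23 count of 205 became 1 without a filter, 107 with equal sums, 89 with sex as a covariate, 57 with the highest transcript, 89 without the trend, 717 with all 12 mice in 1 fit, and 0 to 35 with 1 mouse left out. The Runx2 count of 247 became 14 without a filter, 90 with the replicate block, 34 with sex as a covariate, 111 with the highest transcript, 95 with all 12 mice, and 34 to 169 with 1 mouse left out. The count of genes that differed between the sets, 20, became 6 without a filter, 43 at 5 FPKM, 37 with equal sums, 136 with the replicate block, 11 with the highest transcript, and 2 to 164 with 1 mouse left out. Of the genes called in the Med23 set 64.4% were higher, against 39.3% with equal sums and 39.9% with median-ratio scaling. Same-numbered mice did not deviate together in every pair (correlations 0.180, 0.259 and 0.0527 in the Med23 set and 0.00482, -0.0474 and -0.0836 in the Runx2 set), so the numbers were not taken as a pairing, and with the replicate block the Med23 count was 273. By limma without adjustment, at the same threshold of 0.05, 735 genes were called lower and 2046 higher among the Med23 mice.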
